A study of Homo sapiens with 6 samples.

Results

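The major histocompatibility region of human chromosome 6 was taken as positions 28500000 to 33500000 of GRCh38, and every R-loop peak that lay in it was a member. The 3 peak lists used here held 825 such peaks of 197102 in all, with 354 of 85564 in senescent cells, 79 of 9736 in quiescent cells and 392 of 101802 in proliferating cells. Peaks at histone and tRNA genes, which crowd the first megabase of the region, were left out of counts by density, overlap and position. They numbered 7 in senescent, 0 in quiescent and 23 in proliferating cells, which left 347, 79 and 369 peaks for those counts. Values of genes, promoters and stretches without peaks used all peaks. Those at the start of the region can thus include peaks at histone or tRNA genes. The rule for members uses position and no peak value, but the region was proposed with earlier results of these data known.

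The cells were IMR90, a line of wild-type embryonic lung fibroblasts, and all were grown at 2% oxygen. Senescent cells expressed an ectopic Ras, quiescent cells had been starved, and proliferating cells carried a control vector; neither the Ras construct nor the length of a treatment is stated. The assay was MapR, a form of CUT&RUN. A catalytically inactive RNase H carrying micrococcal nuclease (RH-MNase) binds RNA-DNA hybrids in permeable cells, and the nuclease then frees the chromatin around them. The series holds 6 libraries, 1 with RH-MNase and 1 with the background enzyme GST-MNase in each state. Results rest on the 3 RH-MNase peak lists, and libraries made with GST-MNase are not analysed here.

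An R-loop forms where an RNA strand pairs with 1 DNA strand and leaves the other unpaired. Such structures are found mostly over transcribed genes, at CpG-rich promoters and near the ends of transcription units, and persistent ones are a source of DNA damage and of nucleic acids that innate sensors can recognise. The major histocompatibility region carries the class I genes, whose products show peptides from inside the cell to cytotoxic T cells, and the class II genes, whose products show peptides from ingested material to helper T cells. Class I molecules are made by nearly all nucleated cells. Class II molecules are made mainly by professional antigen-presenting cells, and fibroblasts make them only after induction, chiefly by interferon-gamma through the transactivator CIITA. Between them lies class III, a dense stretch of genes for complement, tumour necrosis factor, heat shock proteins and many general cell functions.

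The promoter windows below run from 250 bases before to 50 bases after the annotated start and are RefSeq sequence of GRCh38.p14, written 5′ to 3′ on the strand of the gene. They were picked to show a class I pair with peaks (HLA-B and HLA-C), a class II gene without a peak (HLA-DQB1), the back-to-back peptide-processing genes TAP1 and PSMB9 under 1 shared peak, the duplicated heat shock genes HSPA1A and HSPA1B, and the inflammatory cytokine gene TNF. Capitals mark matches, on either strand, to 4 motifs. GGGCGG is the GC box bound by Sp1, and ATTGG is the core of the element bound by NF-Y. GAANNTTC is a pair of units of the heat shock element. TATAAA is the TATA box. Matches to different motifs can share bases where they meet, as the last bases of ATTGG and the first of GGGCGG do in some promoters.
HLA-B, chr6:31357130-31357429, minus strand: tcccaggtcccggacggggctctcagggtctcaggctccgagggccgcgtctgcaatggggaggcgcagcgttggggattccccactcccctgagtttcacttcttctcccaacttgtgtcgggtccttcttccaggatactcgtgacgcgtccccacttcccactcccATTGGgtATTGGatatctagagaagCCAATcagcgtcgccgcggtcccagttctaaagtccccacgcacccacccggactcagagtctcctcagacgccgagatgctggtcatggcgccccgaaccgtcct
HLA-C, chr6:31272043-31272342, minus strand: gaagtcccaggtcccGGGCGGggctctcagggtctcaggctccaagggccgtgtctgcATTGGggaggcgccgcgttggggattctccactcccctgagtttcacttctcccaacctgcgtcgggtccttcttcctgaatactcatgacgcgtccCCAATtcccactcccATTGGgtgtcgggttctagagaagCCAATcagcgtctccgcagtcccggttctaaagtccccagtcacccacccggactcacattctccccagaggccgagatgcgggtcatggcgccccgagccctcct
HLA-DQB1, chr6:32666608-32666907, minus strand: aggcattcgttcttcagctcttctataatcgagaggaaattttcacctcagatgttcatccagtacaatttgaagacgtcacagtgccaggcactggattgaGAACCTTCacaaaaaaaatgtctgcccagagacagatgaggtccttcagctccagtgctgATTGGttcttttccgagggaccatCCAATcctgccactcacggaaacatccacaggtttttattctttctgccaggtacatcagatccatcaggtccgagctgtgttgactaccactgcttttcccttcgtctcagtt
TAP1, chr6:32853655-32853954, minus strand: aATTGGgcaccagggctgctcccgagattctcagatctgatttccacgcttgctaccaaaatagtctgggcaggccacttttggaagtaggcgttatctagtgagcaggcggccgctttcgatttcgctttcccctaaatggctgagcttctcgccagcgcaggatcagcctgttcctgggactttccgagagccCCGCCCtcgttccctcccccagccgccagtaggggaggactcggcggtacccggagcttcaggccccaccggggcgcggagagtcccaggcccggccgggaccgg
PSMB9, chr6:32853942-32854241, plus strand: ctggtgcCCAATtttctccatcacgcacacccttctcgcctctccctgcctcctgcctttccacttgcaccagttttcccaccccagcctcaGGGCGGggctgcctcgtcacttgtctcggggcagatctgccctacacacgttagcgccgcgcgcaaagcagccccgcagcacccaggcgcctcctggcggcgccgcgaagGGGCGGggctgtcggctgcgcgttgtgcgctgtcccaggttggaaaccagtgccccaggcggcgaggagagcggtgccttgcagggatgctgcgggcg
HSPA1A, chr6:31815293-31815592, plus strand: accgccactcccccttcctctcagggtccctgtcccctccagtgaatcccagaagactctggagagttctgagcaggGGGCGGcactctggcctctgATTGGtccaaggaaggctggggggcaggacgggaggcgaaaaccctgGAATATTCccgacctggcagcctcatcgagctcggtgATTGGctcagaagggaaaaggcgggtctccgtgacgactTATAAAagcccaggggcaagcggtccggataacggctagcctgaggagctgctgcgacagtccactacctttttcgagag
HSPA1B, chr6:31827488-31827787, plus strand: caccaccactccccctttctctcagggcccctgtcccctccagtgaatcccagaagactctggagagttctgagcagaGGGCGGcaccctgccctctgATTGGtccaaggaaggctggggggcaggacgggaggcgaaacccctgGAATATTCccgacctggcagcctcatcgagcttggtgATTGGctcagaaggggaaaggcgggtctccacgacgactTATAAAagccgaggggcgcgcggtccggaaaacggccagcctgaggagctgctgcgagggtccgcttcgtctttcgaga
TNF, chr6:31575315-31575614, plus strand: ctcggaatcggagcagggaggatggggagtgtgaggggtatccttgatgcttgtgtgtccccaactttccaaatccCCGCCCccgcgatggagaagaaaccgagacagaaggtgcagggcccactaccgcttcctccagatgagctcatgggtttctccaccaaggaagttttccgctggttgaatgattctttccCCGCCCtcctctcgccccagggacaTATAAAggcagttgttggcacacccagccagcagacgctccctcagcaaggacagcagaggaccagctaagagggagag
The TAP1 and PSMB9 windows shared 13 bp, since these genes start back to back. The HSPA1A and HSPA1B windows were the same at 277 of 299 aligned bases (92.6%), with a longest identical run of 49 bases, and the HLA-B and HLA-C windows shared a run of 25 bases.

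Each state is represented by 1 RH-MNase library, so no p-value was computed and differences are between single libraries. Intervals are 95% intervals that cover counting error only. The read depth behind the lists is unknown. Lists differ in length and in peak width, with a median width of 468 bp in senescent, 352 bp in quiescent and 550 bp in proliferating cells, so region values are given beside those of the rest of the genome in the same list. The score of a peak is the authors' own, a whole number whose scale is not stated, and it is used only to rank peaks within a list. In bulk material the share of cells that carry a structure and its amount per cell cannot be told apart. Several stretches hold near-identical copies or differ between haplotypes (the HLA genes, HSPA1A and HSPA1B, and the block with C4A, C4B, CYP21A2 and TNXB), and peaks there are uncertain because reads from 1 copy can be placed on another.

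Class III, the gene-dense middle of the region, had the highest peak density of the classical segments in every state, class I came next and class II was lowest. Class III was taken as positions 31511125 to 32292697 and held 59 protein-coding genes in 0.782 Mb. It had 159 peaks per Mb in senescent cells (interval 132 to 189), 33.3 in quiescent cells (21.7 to 48.7) and 145 in proliferating cells (119 to 174). Class I, positions 29672392 to 31511124 with 50 protein-coding genes from ZFP57 to MICB, had 76.1 (64.1 to 89.9), 15.2 (10.1 to 22) and 85.9 peaks per Mb (73.1 to 100.4) in senescent, quiescent and proliferating cells. Class II, positions 32292698 to 33162693 with 20 protein-coding genes, had 33.3 (22.3 to 47.9), 8.05 (3.24 to 16.6) and 32.2 peaks per Mb (21.4 to 46.5) in the same order of states. The class III density was thus 2.08 times that of class I in senescent cells (1.62 to 2.67), 2.19 times in quiescent cells (1.23 to 3.87) and 1.68 times in proliferating cells (1.31 to 2.16). Against class II the ratio was 4.76 (3.16 to 7.40), 4.14 (1.75 to 11.3) and 4.49 (2.95 to 7.06). The order of class I over class II was clear of counting error in senescent cells (2.28, 1.52 to 3.54) and proliferating cells (2.67, 1.78 to 4.15), whereas the quiescent ratio of 1.89 had an interval that includes 1 (0.808 to 5.13).

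The segments differed in gene number in the same order. Class III held 75.5 protein-coding genes per Mb, class I 27.2 and class II 23, against 6.80 in the rest of the genome. Per protein-coding gene, class I had the most peaks of the classical segments, with 2.8 in senescent, 0.56 in quiescent and 3.16 in proliferating cells. Class III had 2.10, 0.441 and 1.92 peaks per gene, and class II 1.45, 0.35 and 1.4. The whole region had 2.02, 0.459 and 2.15 peaks per gene, fewer than the 4.30, 0.487 and 5.12 of the rest of the genome.

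The flanks of the region differed widely. With peaks at histone and tRNA genes left out, extended class I was lowest of all segments in each state. Extended class II was highest in quiescent and proliferating cells but below class III in senescent cells. Extended class II, positions 33162694 to 33500000, had 119 peaks per Mb in senescent cells (84.7 to 161.5), 44.5 in quiescent cells (24.9 to 73.4) and 151 in proliferating cells (113 to 199). Extended class I, positions 28500000 to 29672391, is a stretch of olfactory receptor and zinc finger genes and had 11.9 (6.53 to 20.0), 2.56 (0.528 to 7.48) and 16.2 peaks per Mb (9.76 to 25.3). The region as a whole had 69.4, 15.8 and 73.8 peaks per Mb, against 29.2, 3.31 and 34.8 in the rest of the genome. That is 2.37 times the rest in senescent cells (2.13 to 2.64), 4.77 times in quiescent cells (3.78 to 5.96) and 2.12 times in proliferating cells (1.91 to 2.35). Among the 603 other windows of 5 Mb, 56 held more senescent peaks than the region, 7 more quiescent peaks and 60 more proliferating peaks. Class II by itself had 1.14 times the density of the rest in senescent cells (0.764 to 1.64), 2.43 times in quiescent cells (0.977 to 5.01) and 0.925 times in proliferating cells (0.615 to 1.34), and all 3 intervals include 1. Extended class I lay below the rest in senescent (0.409, 0.223 to 0.685) and proliferating cells (0.466, 0.281 to 0.728), with peaks at histone or tRNA genes left out. Such peaks were 7 of its 21 senescent and 23 of its 42 proliferating peaks. The full length of the segment was kept, so this exclusion lowers its densities.

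**Figure D1:**
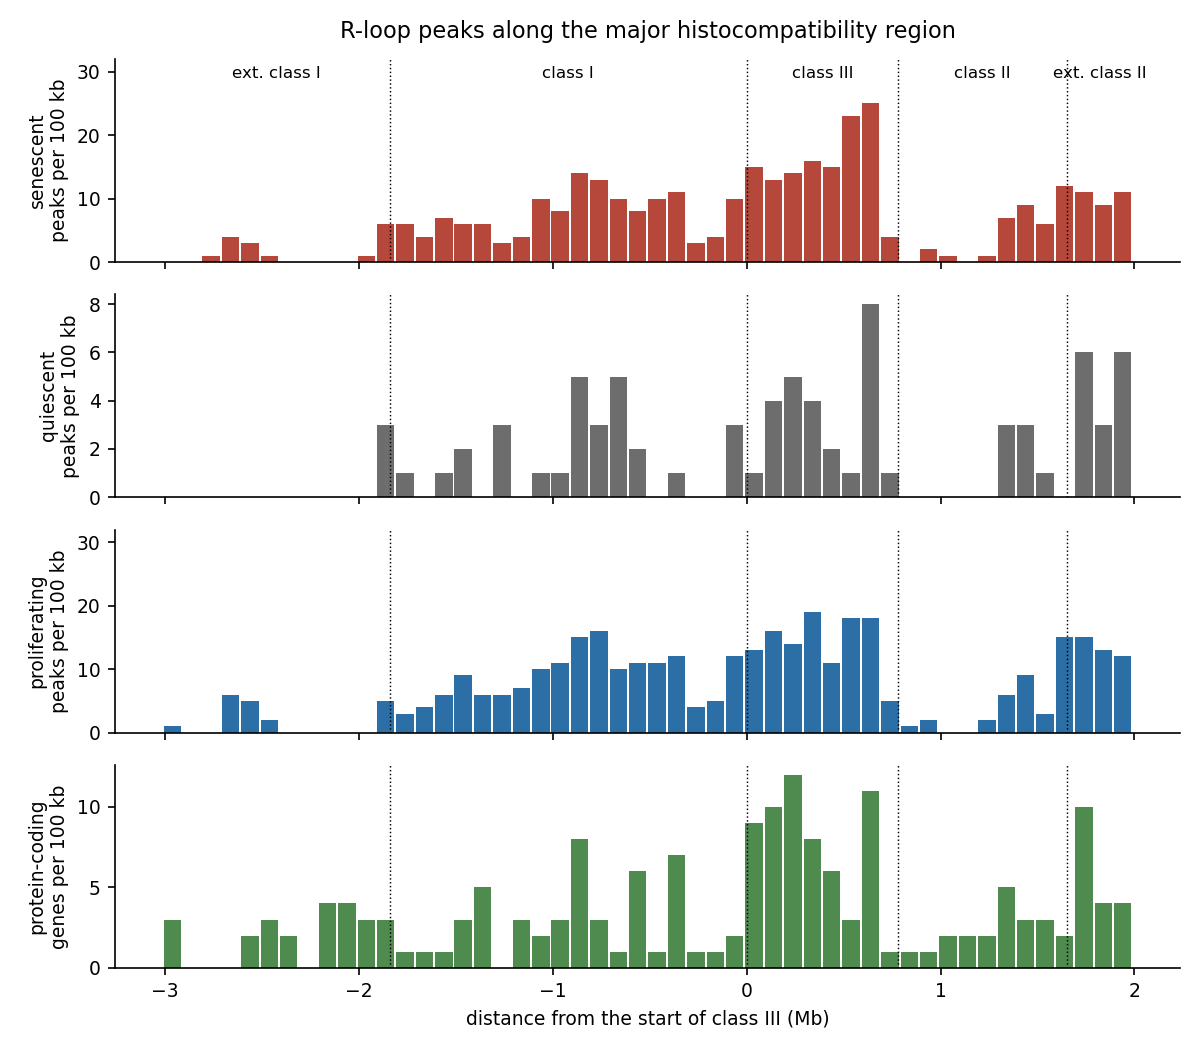
Peaks per 100 kb window along the region (x axis: distance from the start of class III, in Mb; y axis: number of peaks, with a smaller scale for quiescent cells), 1 panel per state, above the number of protein-coding genes; dotted lines part the segments. Senescent and proliferating counts are highest over class III, and counts are 0 over long stretches of extended class I and class II.

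Along the region, 50 windows of 100 kb held between 0 and 25 senescent peaks. The highest senescent window, positions 32100000 to 32199999 from the end of TNXB to NOTCH4, had 25 senescent, 8 quiescent and 18 proliferating peaks over 11 protein-coding genes. The window before it, which holds the rest of C4A with C4B, CYP21A2 and most of TNXB, had 23, 1 and 18 peaks, and its copies make these counts uncertain. The highest proliferating window, positions 31800000 to 31899999 around HSPA1A, HSPA1B and EHMT2, had 16 senescent, 4 quiescent and 19 proliferating peaks. No peak was found in 8 windows in senescent, 23 in quiescent and 9 in proliferating cells.

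Long stretches without peaks lay in the olfactory receptor cluster and among the class II genes. The longest in the senescent list ran for 488 kb from position 29017235 to 29505588 over 13 protein-coding genes, and the longest in the proliferating list for 588 kb from 29017267 to 29605614 over 16. In class II, senescent cells had no peak for 267 kb from 32530293 to 32797240, the stretch from HLA-DRB1 to HLA-DQB2, and proliferating cells had none for 370 kb from 32415838 to 32785844. The longest gap in quiescent cells, 589 kb from 32255465 to 32844122, ended inside PSMB8.

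Senescent and proliferating cells had similar numbers of peaks in the region. The ratio of senescent to proliferating peaks was 0.940 in the region (0.810 to 1.09), against 0.841 in the rest of the genome (0.833 to 0.848), so the region's interval includes the value of the rest. It was 1.10 in class III (0.844 to 1.43), 0.886 in class I (0.701 to 1.12) and 1.04 in class II (0.595 to 1.81), and all 3 intervals include 1 and each other's values. The quiescent list, short throughout the genome, had a larger share of its peaks here: the ratio of quiescent to proliferating peaks was 0.214 in the region (0.166 to 0.274), against 0.0952 elsewhere (0.0932 to 0.0972). List length bears on this, since with the 9736 highest-scoring peaks of each list the region's density was 3.38 times the rest in senescent (2.55 to 4.39), 4.77 times in quiescent (3.78 to 5.96) and 4.18 times in proliferating cells (3.25 to 5.29). Peaks in the region were also wider than elsewhere, with medians of 554 bp in senescent, 378 bp in quiescent and 679 bp in proliferating cells, against 467, 352 and 549 bp. They covered 5.98% of the region in senescent, 0.676% in quiescent and 8.11% in proliferating cells, and 13.1%, 1.57% and 16.9% of class III. With the highest-scoring 40460 proliferating peaks, which cover as much sequence as all senescent peaks, the ratio turned to 1.96 in the region and 2.12 in the rest of the genome.

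**Figure D2:**
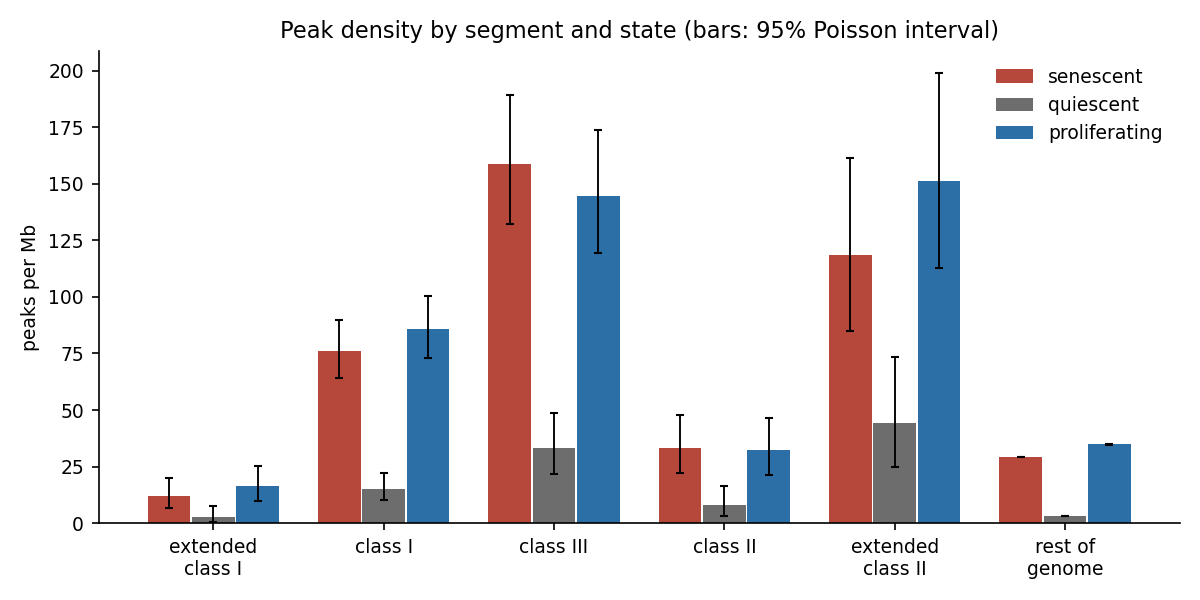
Peaks per Mb (y axis) by segment (x axis) in senescent, quiescent and proliferating cells, with 95% Poisson intervals for counting error and the rest of the genome beside them. Class III and extended class II stand highest in all 3 states, and class II lies close to the rest of the genome in senescent and proliferating cells.

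With all peaks and any overlap counted, peaks of the region had a partner in the other state more often than peaks elsewhere. Of the 347 senescent peaks, 261 overlapped a proliferating peak by at least 1 bp (75.2%, 70.4 to 79.5), against 65.6% in the rest of the genome, a difference of 9.59 percentage points (4.77 to 13.9). Of the 369 proliferating peaks, 233 overlapped a senescent peak (63.1%, 58.1 to 67.9), against 49.8% elsewhere, a difference of 13.3 points (8.28 to 18.1). The senescent difference was 4.75 points (-0.100 to 9.92) where 50% of both peaks had to be shared, and the proliferating one 6.05 points (-5.26 to 17.7) with 9736 peaks in each list, and both of these intervals include 0. Scores were also somewhat higher in the region than in the rest of each list. Peaks of the rest taken at the region's mix of scores, in 5 equal score classes, had partners in 69.0% of senescent and 55.7% of proliferating cases, and peaks taken at the region's mix of widths in 71.6% and 55.6%. The width-matched senescent value lies inside the region's interval, so that gap is not clear of counting error once width is matched. Of the 79 quiescent peaks, 77 had a senescent partner (97.5%) and all 79 a proliferating one, against 94.1% and 99.4% elsewhere. The 2 quiescent peaks without a senescent partner lay just before the start of PRRC2A (31620224 to 31620375) and inside VARS1 (31791385 to 31791631), class III genes for an RNA-binding protein and the valyl-tRNA synthetase.

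With all peaks and any overlap counted, the classical segments could not be told apart by overlap. A proliferating partner was found for 110 of 140 senescent peaks in class I (78.6%, 71.1 to 84.6), 86 of 124 in class III (69.4%, 60.8 to 76.8) and 20 of 29 in class II (69.0%, 50.8 to 82.7). Class III minus class I was -9.22 points, with an interval from -19.7 to 1.35. In the other direction 76 of 113 proliferating peaks in class III had a senescent partner (67.3%, 58.2 to 75.2), with 97 of 158 in class I (61.4%, 53.6 to 68.6) and 18 of 28 in class II (64.3%, 45.8 to 79.3). There class III minus class I was 5.86 points, from -5.76 to 17.0. Against the rest of the genome the gap was clear of 0 in both directions for class I, at 12.9 points (5.42 to 18.9) for senescent and 11.6 points (3.79 to 18.8) for proliferating peaks. For class III it was clear only for proliferating peaks, at 17.4 points (8.33 to 25.4), with 3.73 points (-4.87 to 11.2) for senescent ones. For class II neither was, with 3.34 points (-14.9 to 17.1) and 14.5 points (-4.0 to 29.5). At the class I mix of widths, peaks of the rest had partners in 71.9% of senescent and 54.4% of proliferating cases. At its mix of scores the values were 68.4% and 56.8%. All but the 68.4% lie inside the class I intervals, so those gaps are not clear of counting error once matched. For class III proliferating peaks the matched values, 53.7% by score and 56.3% by width, lie below its interval.

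**Figure D3:**
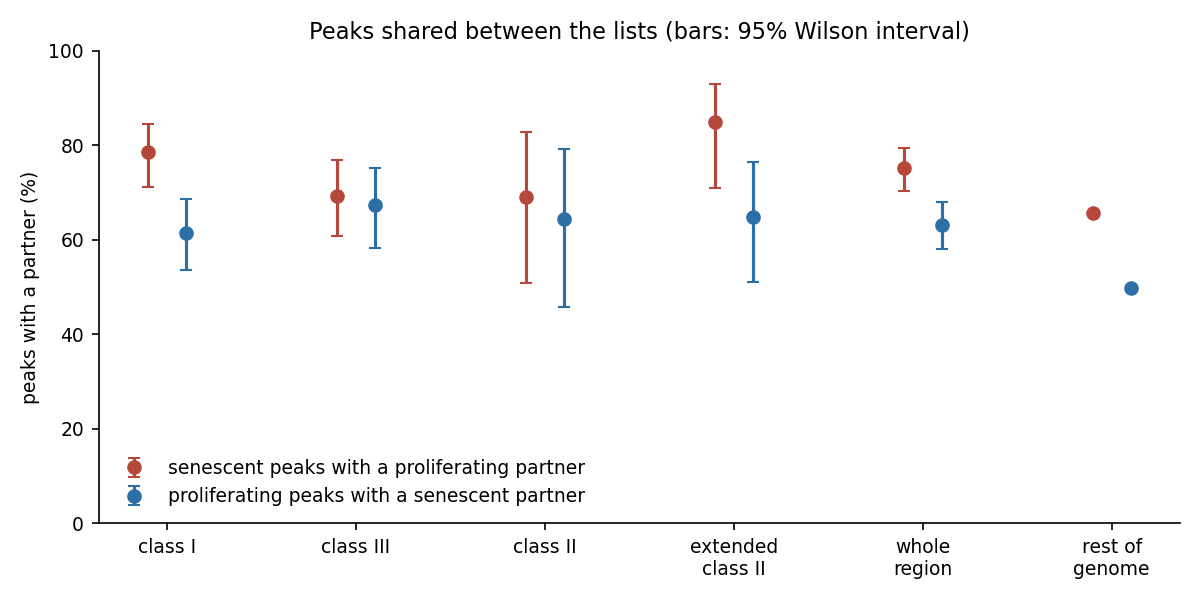
Percent of peaks that overlap a peak of the other state (y axis) by segment (x axis), for senescent peaks with a proliferating partner and proliferating peaks with a senescent partner, with 95% Wilson intervals. The whole region lies above the rest of the genome in both directions, and the intervals of class I, class III and class II overlap.

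Proliferating peaks were more often split into several senescent ones than elsewhere: 30 of 369 (8.13%) overlapped at least 2 senescent peaks, against 5.58% in the rest of the genome. Peaks found in 1 list alone took a smaller share than elsewhere. They made up 86 senescent peaks (24.8%, against 34.4% in the rest) and 135 proliferating peaks (36.6%, against 49.9%). Peaks with partners in both other lists made up 70 senescent peaks (20.2%, against 9.86%) and 64 proliferating peaks (17.3%, against 7.97%).

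Gene ends held a large share of the peaks. A gene end is here the 1000 bp on each side of either annotated end of a protein-coding or lncRNA gene, and such windows make up 15.5% of the region's sequence, against 4.64% of the rest of the genome. They held 164 of 347 senescent peaks (47.3%), 55 of 79 quiescent peaks (69.6%) and 158 of 369 proliferating peaks (42.8%), against 26.1%, 60.6% and 23.6% elsewhere. In class III the shares were 55.6%, 80.8% and 53.1%, in class I 42.1%, 50% and 36.7%, and in class II 44.8%, 85.7% and 50%, the quiescent value from 7 peaks. Gene-end windows make up 24.9% of class III, 14.15% of class I and 11.7% of class II, so the segments also differ in the sequence available. Peaks outside genes were rare in class III, at 8.07% of senescent, 3.85% of quiescent and 10.6% of proliferating peaks, while class I had 30%, 10.7% and 32.9%. Genes cover 77.3% of class III and 41.1% of class I, so class III has less sequence outside genes. Gene-end peaks were also the ones most often shared: 84.8% of the senescent ones had a proliferating partner, against 66.1% of peaks inside genes and 67.6% of peaks outside genes, and for proliferating peaks the shares were 77.2%, 48.3% and 58.2%.

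Of the 172 protein-coding genes of the region, 127 had a gene-end peak in senescent, 57 in quiescent and 122 in proliferating cells. These are 73.8%, 33.1% and 70.9%, near the genome-wide shares of 69.9%, 27.6% and 75.4%. No interval was computed for these shares, so the region is not set apart from the background by them. Of the 172 genes, 57 had one in all 3 lists (33.1%), where the genome-wide share is 27.3%. These were all of the quiescent genes. Such sharing was usual, since 5429 of the 5493 quiescent genes of the whole genome also had one in every list. Class III had 52 of 59 genes in senescent, 23 in quiescent and 52 in proliferating cells, class I 41, 14 and 39 of 50, class II 11, 5 and 9 of 20, extended class II 20, 14 and 19 of 20, and extended class I 3, 1 and 3 of 23. A gene-end peak in senescent but not proliferating cells was found for 11 genes, where the genome-wide share is 2.5%, and the reverse for 6, where it is 8.03%. Adjoining genes can share 1 peak in these counts, as MOG and ZFP57 do.

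The covered percent is the share of a locus, the gene with 1000 bp on each side, that lies under peaks. It averaged 18.1% in senescent (SD 18.8 across the 172 genes), 2.43% in quiescent (SD 4.46) and 22.7% in proliferating cells (SD 23.7), against 7.89%, 0.966% and 12.3% elsewhere. The medians were 13.5%, 0% and 17.5% in the region, against 3.13%, 0% and 5.76%. By segment the mean was 22% in senescent, 3.35% in quiescent and 27.2% in proliferating cells in class III, 16.7%, 1.60% and 22.4% in class I, and 6.45%, 1.98% and 9.18% in class II. The senescent value was 0.796 times the proliferating one, against 0.641 times elsewhere. It was lower in senescent cells for 102 of the 172 genes, where the genome-wide share is 72%, and higher for 37, where it is 13.3%. A covered percent at least 2-fold lower in senescent cells was found for 22 genes (30.3% genome-wide) and at least 2-fold higher for 13 (4.39%). Higher values were found for 17 genes in class III, 10 in class I, 4 in class II, 5 in extended class II and 1 in extended class I. Both measures thus leaned less towards proliferating cells here than across the genome. Against those 40460 proliferating peaks of equal covered length, 59 of the 172 genes were higher and 78 lower in senescent cells, where the genome-wide shares at this setting are 30% and 52.6%.

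For 154 protein-coding genes the RefSeq windows gave the strand, so the start could be told from the far end. A peak within 1000 bp of the start was found for 104 genes in senescent, 45 in quiescent and 104 in proliferating cells, where the genome-wide shares are 67.2%, 27.2% and 73.7%. A peak within 1000 bp of the far end was found for 63, 13 and 65 genes, that is 40.9%, 8.44% and 42.2%, where the genome-wide shares are 20.8%, 2.96% and 24.9%. Far ends were marked most in extended class II, with 16 of 17 genes in senescent, 7 in quiescent and 15 in proliferating cells, and in class III, with 26, 4 and 30 of 53. Class II had 1, 1 and 3 of 19. A far end can lie close to the start of a neighbouring gene, and 1 peak can then count for both.

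HLA-B and HLA-C carried peaks in senescent and proliferating cells and none in quiescent cells, and both had less of their locus covered in senescent cells. They encode heavy chains of class I molecules, which bind the peptide. HLA-B (31353875 to 31357179) had 27.1% of its locus covered in senescent, 0% in quiescent and 39.1% in proliferating cells, and its promoter window printed above lay whole under the senescent peak at 31356122 to 31357560 and the proliferating peak at 31355783 to 31357857. HLA-C (31268749 to 31272092) showed the wider gap, with 12.4%, 0% and 47.3%. Its 300-base promoter window lay under the proliferating peak from 31270759 to 31273530, and in senescent cells it fell between a peak inside the gene at 31271472 to 31271892 and another at 31272425 to 31272667. The HLA genes resemble each other and vary between people, so these values are uncertain.

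Non-classical class I genes were more mixed. HLA-E, which presents leader peptides to natural killer cell receptors, had 10.1% covered in senescent, 0% in quiescent and 19.9% in proliferating cells. HLA-F was higher in senescent cells, at 7.20%, 0% and 2.58%. HLA-G, a class I gene of the trophoblast, had no peak in any list. MICA and MICB encode stress-induced ligands of the receptor NKG2D on natural killer cells. MICA was nearly level, with 31.5% in senescent, 1.35% in quiescent and 32.5% in proliferating cells, and MICB had 18.9%, 2.41% and 32.3%.

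The genes that make and load class I peptides lie inside the class II segment, with TAPBP just after it in extended class II. TAP1 and TAP2 form the pump that brings peptides into the endoplasmic reticulum, TAPBP encodes tapasin, which ties the pump to class I molecules, and PSMB8 and PSMB9 are subunits of the immunoproteasome. All 5 had a gene-end peak in senescent and proliferating cells and 4 of 5 in quiescent cells. TAP1 had 25.1% of its locus covered in senescent, 12.9% in quiescent and 27.8% in proliferating cells, and PSMB8 had 22.6%, 9.74% and 26.2%. PSMB9 had 15.4%, 10.7% and 23.9%, and TAPBP 22.4%, 2.78% and 30.9%. TAP2 had 6.81%, 0% and 7.15% and was the member without a quiescent peak.

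The peak over the shared start of TAP1 and PSMB9 ran from 32852544 to 32854372 in senescent cells, from 32853154 to 32854007 in quiescent cells and from 32852577 to 32855024 in proliferating cells. It took in all 300 bases of the TAP1 window in each state. Of the PSMB9 window it took in 300 bases in senescent, 66 in quiescent and 300 in proliferating cells. With TAP2 as the exception, the peptide-processing genes thus had peaks in all 3 states, where HLA-B and HLA-C had none in quiescent cells. Their median cover was 22.4% in senescent, 9.74% in quiescent and 26.2% in proliferating cells. The ratio of senescent to proliferating means was 0.796, the same value as over all genes of the region.

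Classical class II genes were nearly bare. Of 9 genes for the DR, DQ and DP chains, 3 had a gene-end peak in senescent, 1 in quiescent and 1 in proliferating cells. HLA-DRA, HLA-DRB1, HLA-DQA1, HLA-DQB1, HLA-DQA2 and HLA-DQB2 had no peak in any list, and the HLA-DQB1 promoter window printed above was free of peaks. HLA-DPA1 and HLA-DPB1, which overlap on opposite strands, had low cover: HLA-DPA1 had 6.06% in senescent, 0.869% in quiescent and 5.62% in proliferating cells, and HLA-DPB1 7.01%, 1.01% and 6.5%. HLA-DRB5, which only some haplotypes carry, had 1 senescent peak at 32529802 to 32530292 over 3.29% of its locus and none in the other states. Of the accessory genes that help class II molecules exchange peptides, HLA-DMA had 3.63%, 0% and 12.9%, HLA-DMB 2.47%, 0% and 13.9%, HLA-DOA 5.68%, 0% and 3.35%, and HLA-DOB no peak. BRD2, a bromodomain gene that lies among them and is active in most cells, had 30.9% covered in senescent, 4.43% in quiescent and 55.5% in proliferating cells.

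**Figure D4:**
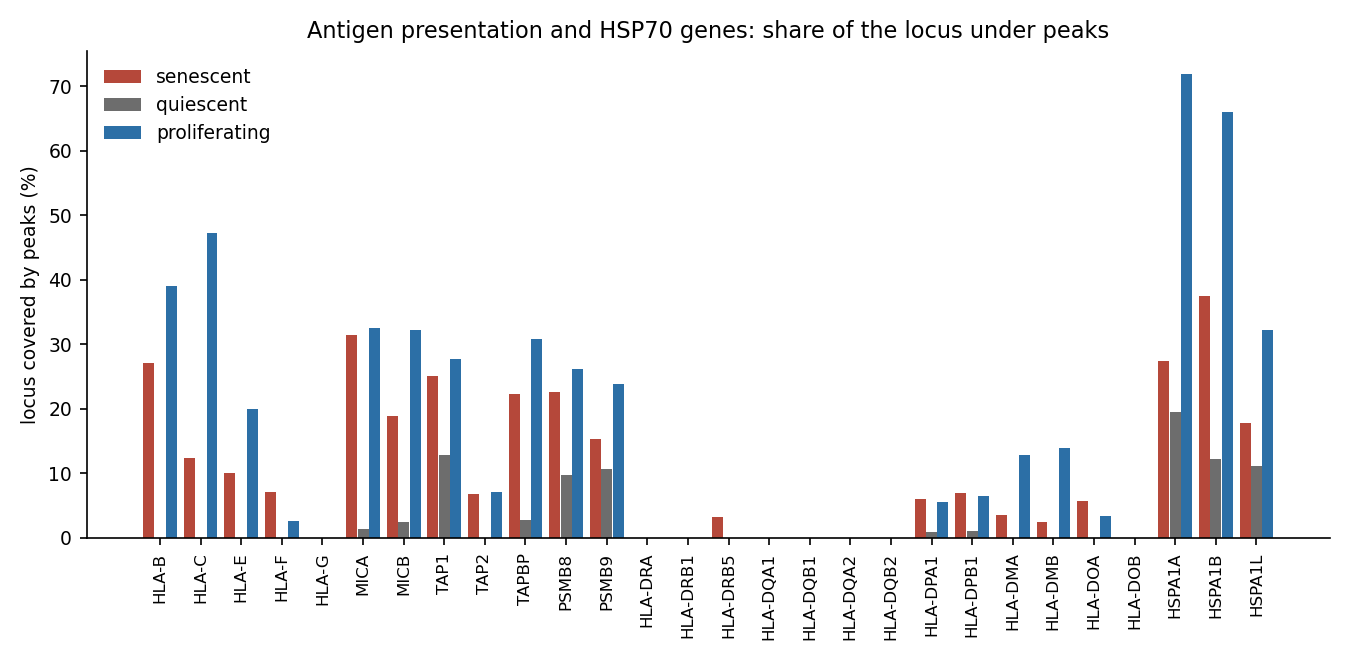
Covered percent of the locus (y axis) of antigen presentation and heat shock genes (x axis) as bars for senescent, quiescent and proliferating cells. Peptide-processing and HSP70 genes, and all class I genes shown but HLA-G, are covered in senescent and proliferating cells, while 6 of the 9 classical class II genes are at 0 in all 3 lists.

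In class III the HSP70 genes had peaks in all 3 states. HSPA1A and HSPA1B encode the same heat-inducible chaperone, and HSPA1L a relative made mainly in testis. HSPA1A had 27.4% of its locus covered in senescent, 19.6% in quiescent and 71.9% in proliferating cells, HSPA1B 37.4%, 12.3% and 66.0%, and HSPA1L 17.8%, 11.2% and 32.3%. The HSPA1A peak ran from 31814382 to 31815748 in senescent, from 31814835 to 31815694 in quiescent and from 31813809 to 31817707 in proliferating cells, and the whole promoter window printed above was inside it each time. The list median was 27.4%, 12.3% and 66.0%, and the ratio of senescent to proliferating means was 0.486. Both copies are near identical over their windows, so the split of signal between them is uncertain.

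Complement genes were covered mainly at CFB and C2, which encode the factors that form the C3 convertases. CFB was higher in senescent cells, with 33.2% covered in senescent, 0% in quiescent and 22.6% in proliferating cells, while C2 had 13.6%, 1.72% and 16.4%. C4A had 1.35%, 0% and 3.07% and C4B 6.12%, 0% and 5.79%. These are near-identical genes whose copy number differs between people, so neither the levels nor their order can be relied on. The same holds for the neighbouring CYP21A2, a steroid hydroxylase gene with 9.43%, 0% and 6.33%, and for TNXB, an extracellular matrix gene with 17 senescent, 1 quiescent and 13 proliferating peaks. From C4A to TNXB there were 26, 1 and 20 peaks. Without this block the senescent to proliferating ratio of class III was 1.05 (0.785 to 1.42), and 74.5% of senescent peaks had a proliferating partner (65.0 to 82.1).

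In the block of TNF, LTA and LTB a gene-end peak was found at 6 of 7 genes in senescent, 0 in quiescent and 5 in proliferating cells. LTB, which encodes a lymphotoxin that shapes lymphoid organs, had the most cover, with 54.1% in senescent, 0% in quiescent and 63.0% in proliferating cells. TNF, the inflammatory cytokine gene, had 6.16%, 0% and 7.15%, and LTA 8.95%, 0% and 9.13%. In the TNF promoter window printed above 148 of 300 bases lay under the proliferating peak and none under a senescent one. The myeloid and lymphoid genes beside them differed more between the lists: LST1 had 17.6% and NCR3, a natural killer cell receptor gene, 15.8% in senescent cells alone, while AIF1 had 22.8% in proliferating cells alone. LST1 and NCR3 overlap, so a peak can count for both. These peaks were weak, with a best score of 17 at LST1 and at NCR3, where the senescent median is 19. At AIF1 it was 16, where the proliferating median is 22. NFKBIL1 had 17.4% in senescent, 0% in quiescent and 19.5% in proliferating cells.

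Among other class III genes, 3 with high cover in proliferating cells follow. CLIC1, a chloride channel gene, had 60.1% covered in senescent, 22% in quiescent and 83.6% in proliferating cells, FKBPL 65.4%, 18.3% and 81.9%, and GPANK1 54.2%, 2.10% and 67.9%. Near the end of the segment some genes were higher in senescent cells and others among them were lower. PBX2, a homeodomain gene, had 65.1%, 12.7% and 57.4%, GPSM3, a regulator of G-protein signalling, 56.8%, 11.2% and 54.7%, and PPT2 32.1%, 8.67% and 24.3%. EGFL8 had 17.4%, 0% and 3.43%. NOTCH4, the endothelial Notch receptor gene, had 13.7%, 1.70% and 11.7%. Nearer the middle of the segment SKIC2, an RNA exosome helicase gene, had 24.6%, 2.18% and 11.8%.

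Class I also holds many genes with no part in antigen presentation, and 4 of them follow that had the most cover in proliferating cells. IER3, an immediate early survival gene, had 34.0% covered in senescent, 0% in quiescent and 86.9% in proliferating cells. TUBB, a beta-tubulin gene, had 41.0%, 6.92% and 76.7%, NRM, a gene for a protein of the nuclear envelope, 62.5%, 6.44% and 80.4%, and PPP1R18 54.1%, 9.0% and 67.7%. RNF39 and DHX16 were higher in senescent cells, with 50.2%, 0% and 27.2% for RNF39 and 15.1%, 0% and 6.83% for the helicase gene DHX16. Extended class II had some of the highest values of the region. B3GALT4 had 88.0% covered in senescent, 6.32% in quiescent and 100% in proliferating cells, HSD17B8 80.5%, 2.06% and 97.5%, CUTA 75.0%, 17.3% and 90.2%, and DAXX, a histone H3.3 chaperone gene, 65.8%, 7.72% and 74.3%. COL11A2, a fibrillar collagen gene, and RING1, a Polycomb gene, were higher in senescent cells, at 29.4%, 0% and 18.2% and at 53.7%, 15.8% and 39.2%.

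In extended class I none of 13 olfactory receptor genes had a gene-end peak in any list. GABBR1, a GABA receptor gene, had 12.4% covered in senescent, 4.04% in quiescent and 21.6% in proliferating cells, and TRIM27 2.23%, 0% and 10.8%. No peak in any list was found over 32 loci of the region, where the genome-wide share is 14.6%: 18 in extended class I, 8 in class II, 4 in class I and 2 in class III.

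Genes with a gene-end peak in 1 of the senescent and proliferating lists and no peak of the other within 5000 bp were 8 in all. In senescent cells there were 5 of 172, where the genome-wide share is 0.764%: HLA-DRB5, MOG, NCR3, TRIM15 and ZFP57, with scores of 18, 11, 17, 15 and 11 where the median of the list is 19. MOG and ZFP57 adjoin, and the same weak senescent peak counts for both. In proliferating cells there were 3 of 172, where the genome-wide share is 2.78%: MUC21, TSBP1 and ZNF311, with scores of 20, 14 and 32 where the median is 22. MOG encodes a myelin protein and MUC21 an epithelial mucin.

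The highest-scoring peaks of the region lay away from the HLA genes. In senescent cells they were a peak at 32190273 to 32191927 at PBX2 and GPSM3 and one at 31598511 to 31598712 outside genes (both 54), and one at 30881917 to 30883511 at DDR1, a collagen receptor gene (51). In quiescent cells they were at 33410723 to 33410872 in PHF1, within 1000 bp of its start and of the end of KIFC1 (70), at 32195245 to 32195504 at GPSM3 and NOTCH4 (50) and at 31157974 to 31158118 at CCHCR1 and TCF19 (44). In proliferating cells they were at 33317718 to 33318488 at ZBTB22 and DAXX (109), at 33409890 to 33411918 at KIFC1 and PHF1 (95), and at 30751637 to 30753469 outside genes and 32843434 to 32844993 at PSMB8 and TAP1 (both 89). The stretch around the start of PHF1, a Polycomb-associated gene, and the end of KIFC1, a mitotic kinesin gene, was thus among the top peaks of quiescent and proliferating cells.

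For the gene lists that follow, the genome-wide shares of protein-coding genes with such a peak are 69.9% in senescent, 27.6% in quiescent and 75.4% in proliferating cells. The region's own shares are 73.8%, 33.1% and 70.9%. Genes of RNA processing had a gene-end peak in 12 senescent, 8 quiescent and 12 proliferating members of 12, with a mean covered ratio of senescent to proliferating cells of 0.890. Chromatin genes had 10, 7 and 9 of 10 with a ratio of 0.850, and genes of matrix, steroid synthesis and Notch signalling 11, 7 and 13 of 13 with 0.927. RPS18, MRPS18B, TUBB, KIFC1, NRM and FLOT1, a mixed list of ribosome, mitosis and membrane genes, had 6, 4 and 6 of 6 with a ratio of 0.588. TRIM and RING genes had 9, 1 and 8 of 11 with 0.945, LY6 genes 4, 1 and 4 of 6 with 0.9, and epidermal and mucin genes 6, 2 and 7 of 10 with 0.8. That mixed list is the one of these below the 0.643 of all protein-coding genes. The ratio over all genes of the region was 0.796, and the other lists lay between 0.8 and 0.945, so they were closer to the region's value.

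As a check of the cells, 8 markers of fibroblasts elsewhere in the genome had a gene-end peak in 6 senescent, 4 quiescent and 7 proliferating cases. Of 18 markers of other cell types 8, 2 and 9 had one. Over all protein-coding genes the shares are 69.9%, 27.6% and 75.4%. The mean cover of the fibroblast markers was 21.2% in senescent, 3.87% in quiescent and 36.0% in proliferating cells. It was 10.3%, 0.901% and 13.2% for the other markers, and 7.98%, 0.979% and 12.4% for all protein-coding genes. Peaks mark R-loops and not expression, so these counts are no measure of how pure the cells were.

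Non-coding genes of the region were counted in the same way. Of 73 lncRNA genes, 36 had a gene-end peak in senescent, 12 in quiescent and 46 in proliferating cells, where the genome-wide shares are 33.5%, 9% and 38.4%; 10 had one in proliferating but not senescent cells (8.82% genome-wide) and 0 the reverse (3.96%). IER3-AS1, which overlaps the immediate early gene IER3, had 50.6% of its locus covered in senescent, 0% in quiescent and 100% in proliferating cells, and the assay does not tell the strands apart. HCG9 had 43.8%, 0% and 47.2%, and PSMB8-AS1, beside the immunoproteasome genes, 30.6%, 13.2% and 35.3%.

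Of 119 pseudogenes, 33 had a gene-end peak in senescent, 4 in quiescent and 34 in proliferating cells, where the genome-wide shares are 9.25%, 1.23% and 11.3%. The class I pseudogenes HLA-H, with 18.3%, 0% and 33.0% covered, HLA-K, with 25.7%, 15.9% and 48.6%, and HLA-J, with 8.8%, 2.7% and 20.9%, were among them, and their likeness to the functional HLA genes makes the place of these peaks uncertain. Of 13 miRNA genes 7, 1 and 7 had such a peak (25.9%, 6.49% and 32.4% genome-wide), and of 7 snoRNA genes 4, 1 and 4 (9.7%, 1.25% and 16.5%). MIR219A1, which lies in the crowded extended class II segment, had 100%, 32.6% and 100% of its locus covered.

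Promoter windows were compared by sequence for the 154 protein-coding genes of the region with a RefSeq entry. A peak touched the window of 86 genes in senescent, 35 in quiescent and 93 in proliferating cells (55.8%, 22.7% and 60.4%), where the genome-wide shares are 51.8%, 16.2% and 68.8%. Windows with a peak in all 3 lists had a median GC content of 63.2% (34 windows), those with a peak in 1 or 2 lists 59% (66) and those with none 47.5% (54). In the rest of the genome the medians were 67%, 65% and 51%. The number of CpG dinucleotides followed the same order, with medians of 21.5, 18 and 3 in the region. GC skew, the excess of G over C on the strand of the gene, was near 0 in each class, at -0.0053, -0.0109 and 0. The classes were formed by these same peaks, so the values describe them and test nothing.

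**Figure D5:**
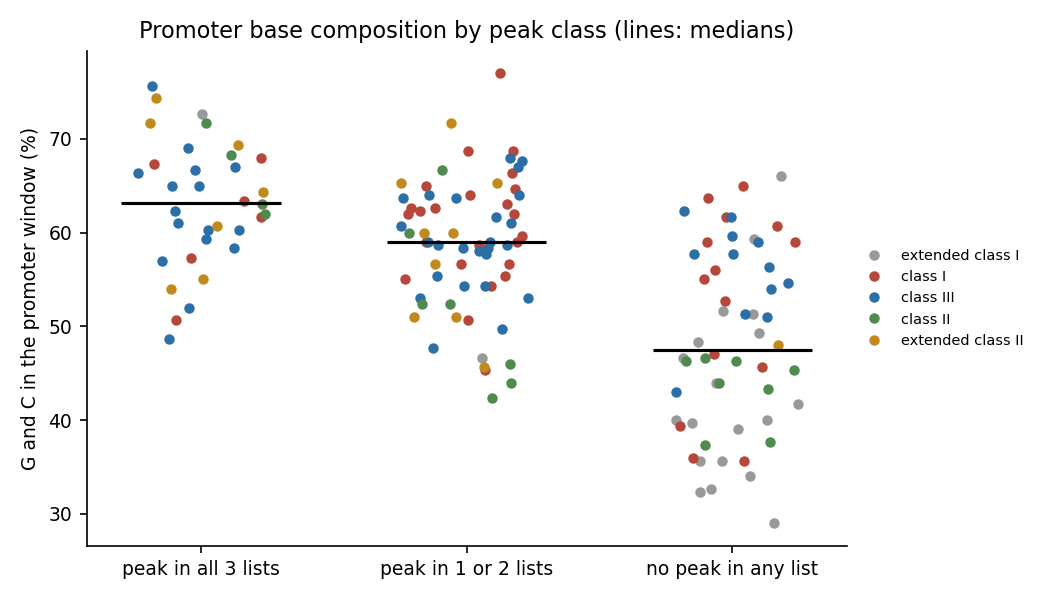
GC content in percent (y axis) of 300-base promoter windows of the region's protein-coding genes, by whether a peak touched the window in all 3 lists, in 1 or 2 lists or in none (x axis); points are genes, coloured by segment, and lines are medians. Windows touched in all 3 lists have a median of 63.2%, and windows touched in none 47.5%.

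The GC box GGGCGG was found on either strand in 47.4% of the region's windows, against 58.5% of all RefSeq promoter windows. It was in 76.5% of windows with peaks in all 3 lists, 57.6% of those with peaks in 1 or 2 and 16.7% of those with none. ATTGG was in 45.5% of the region's windows (36.1% of all), and its share differed little between the classes, at 44.1%, 50% and 40.7%. GAANNTTC was in 13.6% (5.56% of all), with 11.8%, 9.09% and 20.4%, and TATAAA in 18.2% (9.50% of all), with 14.7%, 12.1% and 27.8%. GAANNTTC and TATAAA were thus more frequent in windows without peaks and the GC box in windows with peaks. For GAANNTTC this rests on 4 of 34, 6 of 66 and 11 of 54 windows. The classes also differ in GC content, which bears on how often each motif occurs, and windows of like GC content were not compared. Among the windows printed above, HLA-B held 3 matches to ATTGG and none to GGGCGG, HLA-C 4 and 1, and HLA-DQB1, free of peaks, 2 and none with 1 GAANNTTC. A match is a run of letters and does not show that a factor binds.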

How the data were processed

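Peak lists of 3 RH-MNase MapR libraries of IMR90 cells, 1 per state, were used. FastQC 0.11.9, MACS2 2.2.7.1 and Bowtie2 2.4.5 were used with GRCh38, per the submitters' processing notes. Settings, read filters, depth and whether GST-MNase libraries served as controls were not given in the sources used here. The score in each deposited list is the authors' value per peak and served only for ranking and selection within that list.

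Gene positions were RefSeq's for GRCh38.p14, and strand and promoter sequence from RefSeq windows of the same build, with which 154 of the region's 172 protein-coding genes were matched. Peaks within 1000 bp of a histone or tRNA gene were left out of counts by density, overlap and position. They were kept as possible partners and in the values of genes, promoters and stretches without peaks. Class I runs from ZFP57 to MICB, class III to the gene before TSBP1, class II from TSBP1 to the gene before COL11A2, and the extended segments lie outside them. The rest of the genome is chromosomes 1 to 22 and X, over 1 Mb bins with a gene or a peak in them (2901 Mb). A partner shares at least 1 bp. Densities carry exact Poisson intervals, ratios of counts exact binomial ones, shares Wilson and differences of shares Newcombe intervals, all at 95% and for counting error only. With 1 library per state no test was made. Counting steps were tested on simulated data.

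Region, gene lists and printed promoters were chosen with earlier results of these data known. Genes named are antigen presentation genes with a peak, up to 5 per segment with the most proliferating cover, up to 5 per segment and direction with a peak in 1 state alone, up to 10 per segment whose ends carry peaks in every list, those at the 3 highest peaks of each list, and up to 4 of each other list. Others were chosen after their values were seen. Alternatives were other score, overlap, width, window and list-length settings and, chosen after seeing the data, class III without C4A to TNXB. Python 3.11.15, pandas 2.3.3, numpy 2.4.6, scipy 1.17.1 and matplotlib 3.10.9 were used. Some genes of the region are not reported here.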

Additional observations from a re-analysis of the deposited data

How the results depend on the processing

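No paired analysis was possible because each state has 1 library and no replicate number to share. Read depth is unknown, so counts of peaks cannot be set against it and low counts limit class II and quiescent values most. Of 260 values recomputed for density, overlap and genes, 201 moved by less than their counting error or by less than 1.5 times for counts, 59 moved (32 lower, 27 higher) and 0 changed sign, although the ratios of senescent to proliferating peaks below crossed 1. Of 277 values of gene lists, 233 moved less than that and 44 moved. Keeping histone and tRNA genes, other class III ends, gene-end windows of 500 and 3000 bp, leaving out peaks over 20000 bp and leaving out C4A to TNXB moved none of the 260. The widest peak counted in the region had 7428 bp, so the width limit could not change the region's counts. Class I, class III and class II held 0 peaks at histone or tRNA genes. Keeping such peaks could thus change only values of the whole region or the rest, and the extended segments were not recomputed. The cause was not tested beyond the construction of each alternative.

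With proliferating peaks limited to the senescent covered length, the ratio of senescent to proliferating peaks was 1.71 in class I, 2.48 in class III, 2.9 in class II and 1.96 in the region, above 1 in place of near or below it. Senescent peaks then had a proliferating partner in 57.9%, 48.4%, 37.9% and 53.0% of cases, and proliferating peaks a senescent one in 80.5%, 96%, 90% and 84.2%. Among proliferating peaks class III thus lay farther above class I than with all peaks, and no interval was computed for that gap. The region's proliferating density was 2.57 times the rest, and 59 genes were higher in senescent cells. Fewer proliferating peaks lower the chance of meeting one by construction.

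With 9736 peaks in each list, senescent peaks had a proliferating partner in 57.1% of cases in class I, 57.9% in class III, 100% in class II and 62.5% in the region, and proliferating peaks a senescent one in 37.0% in class I, 55% in class III and 46.4% in the region. Region minus rest was 19.9 points for senescent and 6.05 points for proliferating peaks (-5.26 to 17.7). The region's density was 3.38 times the rest in senescent and 4.18 in proliferating cells. Gene-end peaks were found at 17 senescent and 22 proliferating genes in class I, 20 and 28 in class III, 4 senescent genes in class II and 53 and 75 genes in the region, and 20 genes had higher cover in senescent cells.

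With peaks at the median score or above it, a senescent partner was found for 82.8% of proliferating peaks in class III and 68.9% in the region. Region minus rest was 13.9 points for senescent and 19.1 for proliferating peaks. The density was 2.77 times the rest in senescent and 2.39 in proliferating cells. Quiescent gene-end peaks were left at 8 genes in class I and 15 in class III, and 23 genes had higher cover in senescent cells.

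Where partners had to share 50% of each peak, shares of senescent peaks with a partner were 38.6% in class I, 27.4% in class III, 37.9% in class II and 35.2% in the region, and of proliferating peaks 34.2%, 30.1%, 39.3% and 33.1%. Region minus rest was 4.75 points (-0.100 to 9.92) and 7.50 points (2.89 to 12.5). With partners within 1000 bp the shares were 83.1% in class III and 82.7% in the region for senescent peaks, and 72.2% in class I, 84.1% in class III and 76.7% in the region for proliferating peaks. With merged peaks the proliferating shares were 69.8% in class I and 69.5% in the region.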
